A study of Mus musculus with 12 samples.

Results

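The secreted Wnt inhibitors are proteins that leave the cell and hold back Wnt signalling outside it. The 8 described here, Sfrp1, Sfrp2, Sfrp4, Frzb, Wif1, Dkk2, Dkk3 and Notum, were found by exact gene name among the 56495 genes of the deposited expression table, and all 8 passed the filter on low values. The tissue was mouse urogenital sinus at stage E18.5, late in gestation, cut away from the bladder so that the proximal urethra stayed with it, as did the vagina in female samples. RNA sequencing gave 12 libraries in 4 groups of 3, which cross sex with genotype: wild type, or Inv(Itga6-nsi)d11lac, whose carriers are called mutants here. That name gives an inversion on the chromosome of Itga6 and the Hoxd genes and an allele called d11lac, and no agent was given to any group. The labels do not say which of these alleles were homozygous, nor whether libraries of a group came from separate or pooled embryos. All p-values therefore measure the spread between these libraries, which may be technical.

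Wnt proteins carry a lipid and signal by binding Frizzled receptors together with the co-receptors Lrp5 and Lrp6. Secreted frizzled-related proteins (Sfrp1, Sfrp2, Sfrp4 and Frzb) carry a Frizzled-like domain that can bind Wnts, and Wif1 binds Wnts through a domain of its own. Dkk2 acts on the co-receptors, while Dkk3 is a divergent Dickkopf protein whose action on Wnt signalling is less settled. Notum is an enzyme that removes the lipid from Wnts, and in many tissues its gene is itself switched on by Wnt signalling. In the urogenital sinus, Wnt signals pass between epithelium and mesenchyme while androgens direct prostate budding in males and the vagina forms in females.

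The values are FPKM, fragments scaled to gene length and library depth, divided by a median-ratio factor for each library, and they are written as FPKM below. Differences are log2 fold changes of FPKM plus 0.5 from limma, a scale that understates the change of low genes. A gene is called when its Benjamini-Hochberg adjusted p over 13904 tested genes is under 0.05. Read counts were not given, but relative depth read from the lowest values was 0.812 to 1 in wild type and 0.582 to 0.717 in mutant libraries, without overlap. Pairs of libraries of a group correlated with r of 0.950 to 0.989. Xist stood at 5.51 to 10.5 FPKM in the libraries labelled female and at 0 to 0.242 in those labelled male. The Y-linked genes Ddx3y, Eif2s3y, Uty and Kdm5d reached at most 0.0722 FPKM in females. Among males, Ddx3y was lower in mutants (8.08 to 8.94) than in wild type (14.15 to 16.7), without overlap. So were Eif2s3y (5.37 to 7.51 against 12.26 to 15.55) and Uty (2.89 to 6.14 against 8.01 to 10.7), while Kdm5d overlapped. The part of this in the male mutant differences was not tested. Hoxd13 stood at 15.1 to 20.5 in wild type and 3.15 to 6.23 in mutants. Hoxd11 went the other way, at 2.575 to 3.298 against 4.24 to 10.8. Mutant female 1 stood apart, with summed levels of 11 epithelial markers of 998 FPKM against 463 and 546 in the other mutant females, and of 7 mesenchymal markers of 1944 against 4001 and 3717. Mutant female 3 had a summed level of 8 neural markers of 30.8 FPKM, against 186 to 391 in the 11 other libraries. Epithelial and mesenchymal markers were present in every library, as the tissue label implies.

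The 8 genes covered a wide range of levels, and the same gene led in every group. Sfrp2 had 133 ± 6.22 FPKM in wild type females, 161.7 ± 12.03 in wild type males, 166 ± 70.9 in mutant females and 221 ± 24.7 in mutant males (mean ± SD, n = 3 each). It made up between 53.3% and 75.4% of the summed FPKM of the 8 genes in a library. By its mean over 12 libraries Sfrp2 stood at percentile 98.3 of the tested genes, Sfrp1 at 89.1, Dkk2 at 86.1 and Dkk3 at 79.5. The 4 others were low, with Wif1 at percentile 37.9, Notum at 23.7, Frzb at 17.6 and Sfrp4 at 14.5. In wild type females the order of FPKM was Sfrp2, Dkk2, Sfrp1 and Dkk3, each without overlap with the next, followed by Notum, Frzb, Sfrp4 and Wif1, whose ranges overlapped from one to the next. In wild type males Sfrp1 came after Sfrp2, Dkk3 and Dkk2 overlapped, and Wif1 followed clear of Frzb, Notum and Sfrp4, which overlapped with each other. In mutant females Dkk2, Sfrp1 and Dkk3 overlapped from one to the next, while in mutant males these 3 were ordered Sfrp1, Dkk3 and Dkk2 without overlap.

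**Figure D1:**
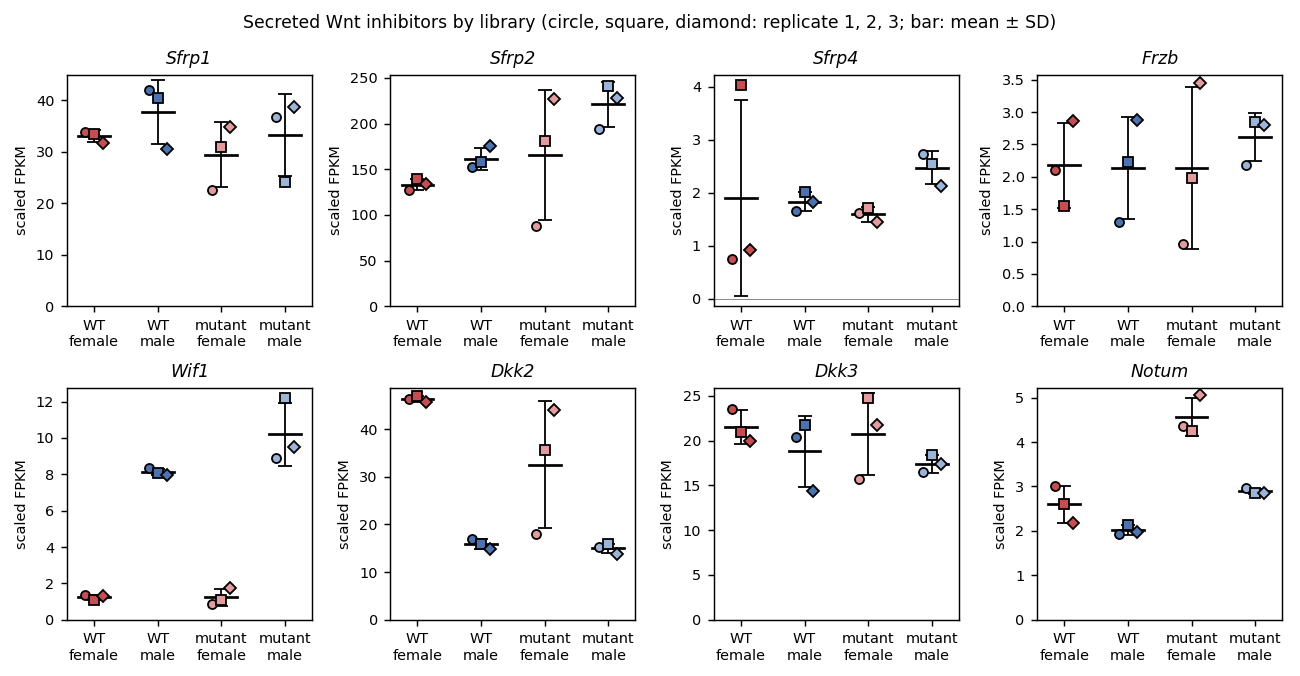
Scaled FPKM of each of the 8 genes (vertical axes, which differ between panels) in the 12 libraries, with the mean and SD of each group of 3 and a marker shape for each replicate number. Wif1 separates males from females, Dkk2 separates them the other way, and Notum is higher in the mutants of each sex.

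Among the genes that bind Wnts, Wif1 was higher in males of both genotypes and showed no called difference between mutants and wild type. Wif1 (ENSMUSG00000020218, mm39 chr10:120869865-120936555, plus strand) had 1.34, 1.07 and 1.29 FPKM in the 3 wild type females and 8.33, 8.08 and 7.97 in the 3 wild type males. In mutants it had 0.861, 1.09 and 1.76 FPKM in females and 8.90, 12.2 and 9.52 in males. Every male library lay above every female library in each genotype, and mutant males lay just above wild type males. The ratio of mean FPKM, males over females, was 6.60 in wild type and 8.25 in mutants. By limma the male-minus-female difference was 2.32 on the log2 scale in wild type (SE 0.17, adjusted p = 3.68e-05) and 2.64 in mutants (SE 0.17, adjusted p = 9.14e-06). Between mutant and wild type it was 0.30 in males (SE 0.17, adjusted p = 0.246) and -0.03 in females (SE 0.17, adjusted p = 0.928), and neither was called. The change of the sex difference with genotype was 0.32, with a 95% interval from -0.21 to 0.86 and an adjusted p of 0.705.

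Markers of some other tissues that could be in the dissection also differed between the sexes. The summed level of 6 cartilage markers was 2.33 to 3.27 FPKM in wild type females and 7.47 to 9.62 in wild type males, with 1 of 4 tested markers called higher in males, and 4.07 to 6.42 against 11.5 to 16.4 in mutants, with 2 of 4 called. For 10 skeletal muscle markers it was 588 to 792 FPKM against 950 to 1303 in wild type, with 4 of 9 tested called higher in males, and 567 to 684 against 555 to 903 in mutants, with 1 called lower. No marker of these lists was listed at 0 in all 12 libraries. Only 4 of 6 cartilage and 9 of 10 skeletal muscle markers reached 1 FPKM in at least 1 library. Of 4 tested Wolffian duct and seminal vesicle markers 2 were called higher in males in each genotype, Wnt9b among them, and 1 lower. The summed level of the 8 neural markers was 244 to 300 FPKM in wild type females and 356 to 391 in wild type males, with 0 called, and 30.8 to 328 against 236 to 317 in mutants, with 1 called higher. Over all tested genes, 1.95% were called higher and 1.23% lower in males in wild type, and 3.98% and 3.52% in mutants. The part of these markers in the Wif1 difference was not tested. In such bulk tissue, fewer cells of a type and less RNA per cell cannot be told apart.

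Sfrp2 was the most abundant of the 8 genes in each group and showed no called difference. Sfrp2 (ENSMUSG00000027996, chr3:83673628-83681623, plus strand) had 127, 139 and 134 FPKM in wild type females and 152, 158 and 175 in wild type males. In mutants it had 88.3, 181 and 227 FPKM in females and 194, 242 and 228 in males. Mutant males lay above wild type males without overlap, and mutant females spanned from below to above all wild type females, with mutant female 1 the lowest library of all 12. The limma difference between mutant and wild type was 0.45 in males (SE 0.26, adjusted p = 0.251), 0.21 in females (SE 0.26, adjusted p = 0.579) and 0.33 over both sexes (SE 0.18, adjusted p = 0.179). Without mutant female 1 the difference was called, at 0.61 in females (adjusted p = 0.0051) and 0.53 over both sexes (adjusted p = 0.000593). The summed level of the 7 mesenchymal markers was 4001 and 3717 FPKM in mutant females 2 and 3, against 2830 to 3079 in wild type females. In males the sums overlapped, at 2362 to 3452 FPKM in mutants and 2569 to 2918 in wild type. Of these 7 markers 0 were called in females, against 12.1% of all genes called higher and 15.9% lower. Over both sexes 0 were called higher and 1 lower, against 18.9% and 21.6%. The part of these markers in the Sfrp2 difference was not tested. In males the Sfrp2 difference was called when the fit held the 2 male groups alone (0.45, adjusted p = 0.0253) and with library weights (0.46, adjusted p = 0.0164), which also gave a call over both sexes (0.44, adjusted p = 0.00466).

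The other 3 frizzled-related genes gave no call in any of the 6 comparisons. Sfrp1 (ENSMUSG00000031548, chr8:23901518-23939648, plus strand) ranged from 22.6 to 42.1 FPKM over the 12 libraries. Its group means were 33.0 ± 1.14 in wild type females, 37.7 ± 6.25 in wild type males, 29.5 ± 6.26 in mutant females and 33.3 ± 7.92 in mutant males (n = 3 each). All 4 groups overlapped, and the limma difference between mutant and wild type over both sexes was -0.19, with a 95% interval from -0.49 to 0.11 and an adjusted p of 0.297. Frzb (ENSMUSG00000027004, chr2:80242314-80277969, minus strand), which encodes sFRP3, ranged from 0.959 to 3.45 FPKM and overlapped between all groups. Its difference between mutant and wild type over both sexes was 0.08, with an interval from -0.44 to 0.61 and an adjusted p of 0.803 (limma). Frzb is the member on the chromosome of the inversion, 8.63 megabases from Itga6 and 5.74 from Hoxd13, on the far side of the Hoxd genes as seen from Itga6. The labels do not place the end called nsi.

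Sfrp4 (ENSMUSG00000021319, chr13:19807274-19817164, plus strand) was the lowest of the 8 genes by its mean. It had 0.753, 4.04 and 0.929 FPKM in wild type females, 1.67, 2.01 and 1.83 in wild type males, 1.61, 1.72 and 1.45 in mutant females, and 2.74, 2.55 and 2.14 in mutant males. The wild type female group was set by its second library, which was the highest of all 12. With all libraries the mutant-minus-wild type difference over both sexes was 0.20 (SE 0.26, adjusted p = 0.563). Without wild type female 2 it was called, at 0.50 over both sexes (adjusted p = 0.00358) and 0.65 in females (adjusted p = 0.0137), and the wild type sex difference was called at 0.80 (adjusted p = 0.027), all by limma.

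Of the 2 Dickkopf genes, Dkk2 was higher in females than in males, the opposite of Wif1. Dkk2 (ENSMUSG00000028031, chr3:131791053-131886065, plus strand) had 46.3, 47.0 and 45.7 FPKM in wild type females and 16.9, 15.8 and 14.8 in wild type males. In mutants it had 17.9, 35.5 and 44.1 FPKM in females and 15.2, 15.8 and 13.9 in males. Wild type females stood in a narrow band far above the males, while mutant females ran from just above the males to just below the wild type females. Mean FPKM was 2.92 times as high in females as in males in wild type and 2.17 times in mutants. The male-minus-female difference was -1.52 in wild type (SE 0.24, limma adjusted p = 0.00656) and -1.001 in mutants (SE 0.24, adjusted p = 0.0313). The mutant call was lost when either of mutant females 2 and 3 (-0.89 and -0.74) or any mutant male (-1.04 to -0.95) was left out, with adjusted p from 0.0618 to 0.106. It was also lost with no filter (0.0768), with FPKM as deposited (0.0767) and in a fit of the 2 groups alone (0.175). Without mutant female 1 the difference was -1.38 (adjusted p = 3.21e-05).

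Between mutant and wild type, Dkk2 gave -0.60 in females (SE 0.24, adjusted p = 0.0849) and -0.08 in males (SE 0.24, adjusted p = 0.846), neither called by limma. The 3 mutant female libraries all lay below the 3 wild type female libraries, and the size of the difference turned on 2 of them. It was -0.22 without mutant female 1 (adjusted p = 0.107) and -0.86 without mutant female 3 (adjusted p = 0.0163). The difference of the mutant effect between the sexes was 0.52, with a 95% interval from -0.23 to 1.27 and an adjusted p of 0.656. The summed level of 7 Müllerian duct and vagina markers was 24.4 to 30.8 FPKM in wild type females and 12.5 to 15.0 in wild type males, with 2 of 5 tested markers called lower in males. In mutants it was 32.4 to 66.2 FPKM in females and 19.5 to 22.6 in males, with 3 of 5 called lower in males. No marker of that list was listed at 0 in all libraries, and 5 of 7 reached 1 FPKM in at least 1 library. The vagina was part of the female dissection, and the part of these cells in the Dkk2 sex difference was not tested. Over all tested genes, 1.23% were called lower in males in wild type and 3.52% in mutants. The Müllerian list shares Pax2 and Hoxa11 with the Wolffian duct and seminal vesicle list, so their counts are not independent.

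**Figure D2:**
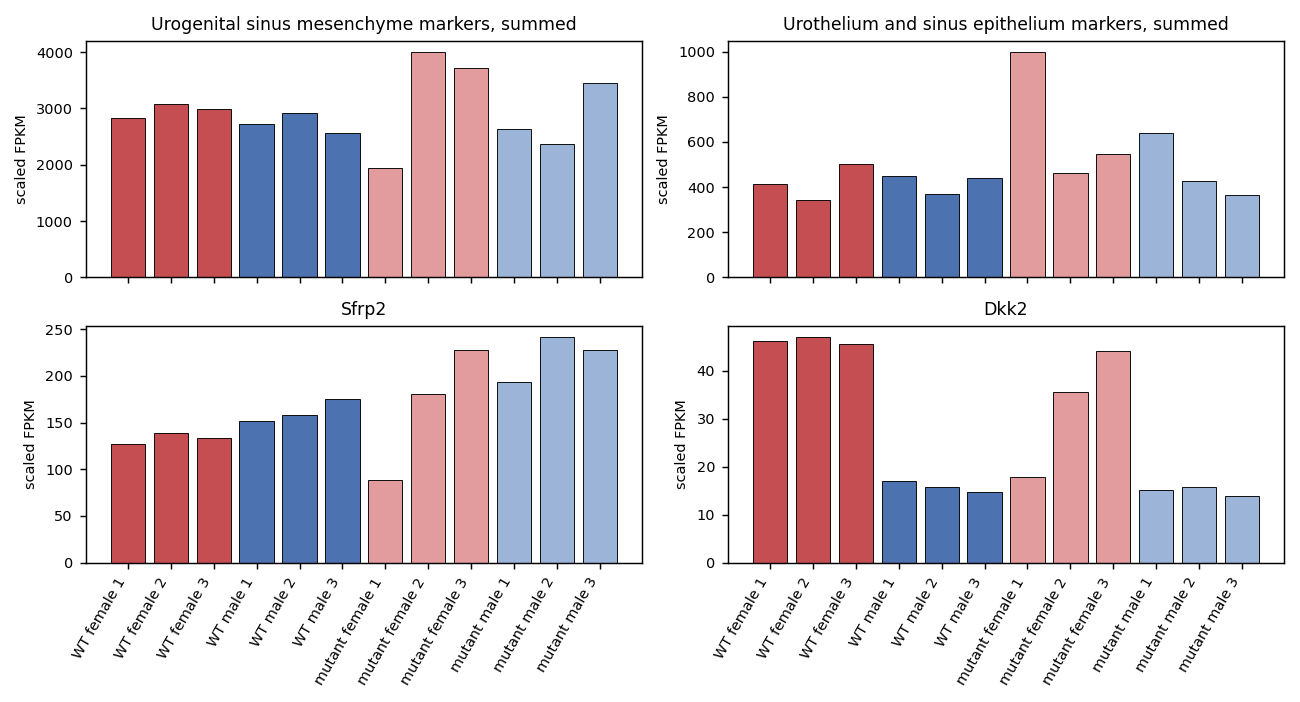
Bars give, for each of the 12 libraries, the summed scaled FPKM of the mesenchyme markers and of the epithelium markers (upper panels) and the scaled FPKM of Sfrp2 and Dkk2 (lower panels). Mutant female 1 has the lowest mesenchyme sum, 1944, the highest epithelium sum, 998, and the lowest Sfrp2 and Dkk2 of the mutant females.

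Wif1 and Dkk2 were the 2 members called between the sexes in wild type, in opposite directions, so the DNA just before their starts is shown for comparison. RefSeq promoter windows on GRCm38.p6 were found for 4 of the 8 genes (Sfrp2, Frzb, Wif1 and Dkk2). The Wif1 stretch is chr10:121033754-121033959, 206 bases that end before the earliest annotated start, and the Dkk2 stretch is chr3:132085042-132085291, the 250 bases before the start, both on the plus strand. Capitals mark the one match to the motifs searched.
Wif1: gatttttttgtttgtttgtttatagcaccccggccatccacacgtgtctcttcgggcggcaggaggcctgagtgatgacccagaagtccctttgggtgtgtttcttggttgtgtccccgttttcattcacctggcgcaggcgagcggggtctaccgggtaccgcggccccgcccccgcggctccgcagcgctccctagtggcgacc
Dkk2: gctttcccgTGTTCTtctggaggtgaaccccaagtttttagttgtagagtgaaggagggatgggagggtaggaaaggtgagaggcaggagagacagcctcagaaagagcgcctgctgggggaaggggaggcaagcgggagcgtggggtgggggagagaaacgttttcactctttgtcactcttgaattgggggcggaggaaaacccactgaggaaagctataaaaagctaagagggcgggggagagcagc
The motifs searched on both strands were CTTTGA, a core bound by the TCF/LEF factors of Wnt signalling, and AGAACA, a core bound by androgen receptor and related steroid receptors. Dkk2 held AGAACA on the minus strand, 241 bases before the start, where the printed plus strand reads TGTTCT. Neither motif matched in the Wif1 or Sfrp2 window, and the window listed for Frzb held 1 CTTTGA, at a place that GENCODE annotates as inside the gene. Of 32851 windows of 250 bases, 13.8% held CTTTGA and 16.1% held AGAACA, so a single match is common and is given as a description of these letters only.

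Dkk3 (ENSMUSG00000030772, chr7:111715224-111758264, minus strand) gave no call. It ranged from 14.3 to 24.8 FPKM, with group means of 21.5 ± 1.87 in wild type females, 18.8 ± 3.94 in wild type males, 20.8 ± 4.59 in mutant females and 17.4 ± 1.00 in mutant males (n = 3 each). Its difference between mutant and wild type over both sexes was -0.08, with a 95% interval from -0.35 to 0.19 and a limma adjusted p of 0.631. The male-minus-female difference was -0.21 in wild type (adjusted p = 0.559) and -0.22 in mutants (adjusted p = 0.454).

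Notum, the enzyme of the group, was higher in mutants than in wild type in females and in males. Notum (ENSMUSG00000042988, chr11:120544614-120552001, minus strand) had 3.01, 2.60 and 2.19 FPKM in wild type females and 4.37, 4.26 and 5.06 in mutant females. In males it had 1.93, 2.14 and 1.98 FPKM in wild type and 2.96, 2.85 and 2.86 in mutants. Mutant libraries lay above wild type libraries of their sex without overlap, and mutant females lay above all other libraries. The ratio of mean FPKM, mutant over wild type, was 1.76 in females and 1.43 in males. The limma difference was 0.57 over both sexes (SE 0.08, adjusted p = 0.000316), 0.71 in females (SE 0.11, adjusted p = 0.00146) and 0.43 in males (SE 0.11, adjusted p = 0.0219). The effect in males minus that in females was -0.28, with a 95% interval from -0.63 to 0.07 and an adjusted p of 0.614. Notum was also lower in males than in females among mutants, at -0.58 (SE 0.11, adjusted p = 0.0129), and gave -0.29 in wild type (SE 0.11, adjusted p = 0.201), which was called with library weights (-0.36, adjusted p = 0.0134). The call among mutants was lost with FPKM as deposited (adjusted p = 0.137), sum scaling (0.058) and a fit of the 2 groups alone (0.0696).

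Across all genes the mutant difference rose with the GC content of the transcript, and Notum is rich in GC. The longest annotated transcript of Notum has 59.5% GC, at percentile 94.3 of the tested genes, and those of the 7 other members 44.4% to 52.9%. In 5 equal bins of genes by GC content, the median mutant-minus-wild type difference over both sexes went from -0.35 in the lowest bin to 0.25 in the highest, which holds Notum. Counted from the lowest, bin 4 holds Sfrp2 (median 0.13) and bin 2 holds Dkk2 and Sfrp4 (-0.14). The other members lie in bin 3 (0.02). In that highest bin 49.1% of genes were called higher over both sexes, 34.8% in females and 22% in males. After each library was corrected for GC content and transcript length, the limma difference of Notum was 0.42 in females (adjusted p = 0.04), 0.32 over both sexes (adjusted p = 0.0172) and 0.22 in males (adjusted p = 0.268). So corrected, the call in males was lost, and those in females and over both sexes were kept at a smaller size. No other member was called between genotypes with that correction.

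The call in males was also lost with FPKM as deposited (0.31, adjusted p = 0.324), with libraries scaled to their FPKM sum (0.35, adjusted p = 0.0946), with no filter on low genes (adjusted p = 0.0511), and without any of wild type males 1 and 3 and mutant males 1 and 2 (adjusted p from 0.0509 to 0.082). The FPKM sums include Rn7sk, a short RNA. It had 42660 FPKM in wild type male 1, 49640 in mutant male 1, 55060 in mutant male 3 and 0 in every other library. Its part in the sum scaling was not tested. In females the Notum difference was between 0.42 and 0.81, and over both sexes between 0.32 and 0.65, and both stayed called under each alternative that tested Notum. Marker lists with more than 1 marker called higher in mutants over both sexes were urothelium and sinus epithelium (4 of 11 tested markers called higher and 0 lower, sums 343 to 503 FPKM in wild type and 365 to 998 in mutants), Müllerian duct and vagina (3 of 5), Wolffian duct and seminal vesicle (3 of 4, sums 24.4 to 27.8 FPKM in wild type and 30.5 to 41.1 in mutants) and cartilage (2 of 4). The cartilage sums were 2.33 to 3.27 FPKM in wild type females and 4.07 to 6.42 in mutant females, and 7.47 to 9.62 and 11.5 to 16.4 in males. Of 9 tested skeletal muscle markers 7 were called lower in mutants over both sexes, with sums of 588 to 1303 FPKM in wild type and 555 to 903 in mutants. Of 8 tested neural markers 2 were called lower, and of 5 tested immune markers 2, with 0 called higher in either list. Of the 7 mesenchymal and 5 endothelial markers 1 each was called lower. Over all tested genes, 18.9% were called higher and 21.6% lower. The Müllerian and Wolffian lists share Pax2 and Hoxa11, so their counts are not independent. Relative depth, lower in every mutant library, moved with genotype as well. The part of these in the Notum difference was not tested.

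**Figure D3:**
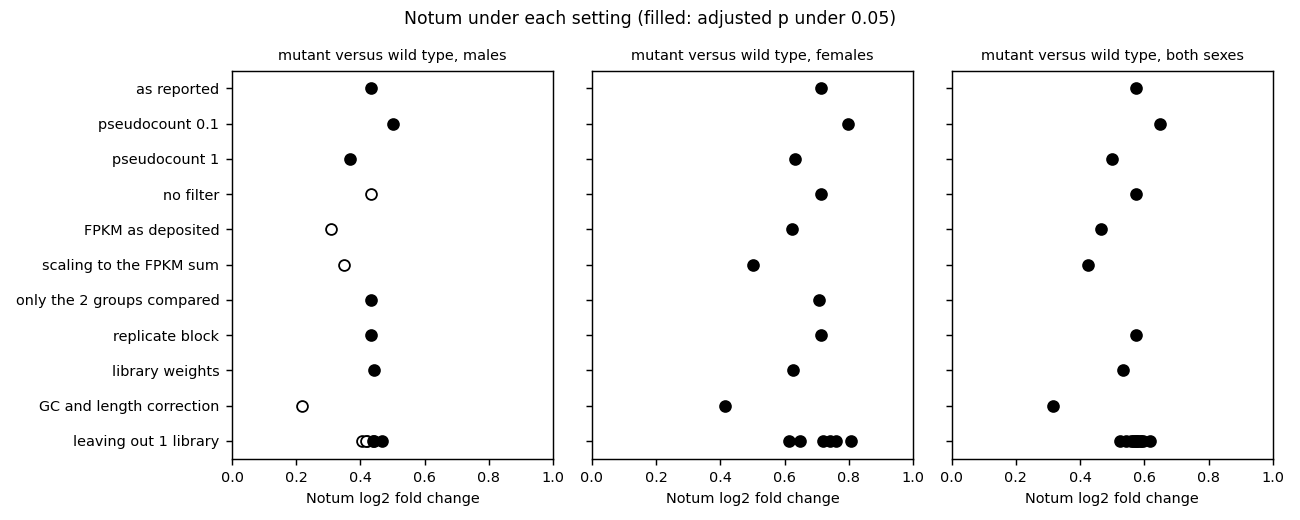
Log2 fold change of Notum, mutant versus wild type (horizontal axes), in males, females and over both sexes under the reported setting and each alternative (rows), filled where the limma adjusted p is under 0.05. The points lie from 0.22 to 0.50 in males, where several are open, and all are filled in females and over both sexes.

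Counted over the 8 genes, 1 carried each mutant call, and calls between the sexes were rarer over all genes than calls between genotypes. In males 1 of 8 was called higher in mutants and 0 lower, against 8.64% and 11.6% of all 13904 tested genes. In females 1 was called higher and 0 lower, against 12.1% and 15.9%, and over both sexes 1 and 0, against 18.9% and 21.6%; in each case the gene was Notum. Between males and females of wild type 1 was called higher in males and 1 lower, against 1.95% and 1.23% of all genes. In mutants 1 was called higher in males and 2 lower, against 3.98% and 3.52%. For the difference of the mutant effect between the sexes, 0 of 8 genes and 0% of all genes were called by limma, with 0 of the 8 and 1225 of all genes at an unadjusted p under 0.05. The median difference of the 8 genes between mutant and wild type was 0.29 in males and -0.05 in females, and over all tested genes it was 0.00 in each.

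**Figure D4:**
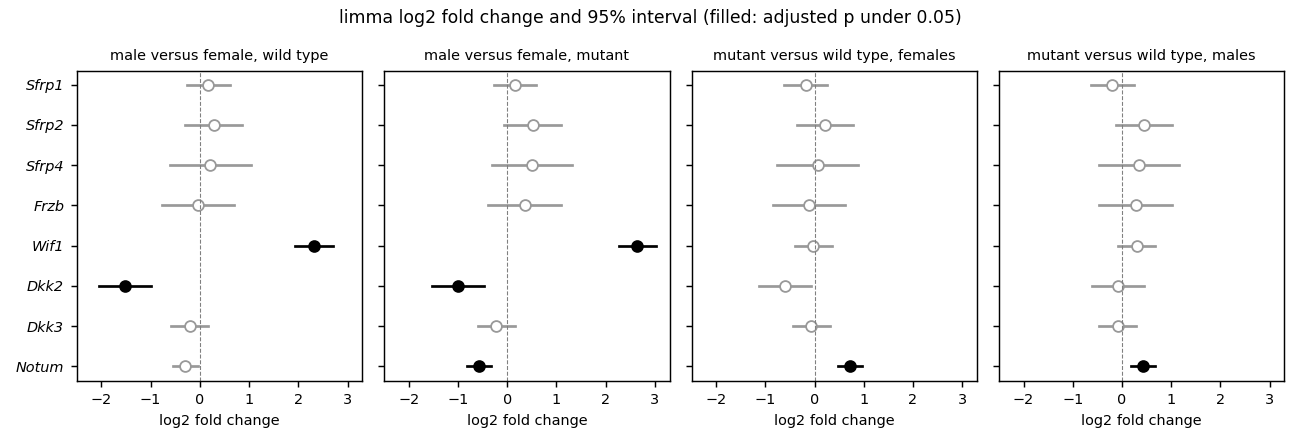
Log2 fold change (points, horizontal axes) with 95% intervals (lines) from limma for the 8 genes in 4 comparisons, filled and black where the adjusted p is under 0.05. Wif1 and Dkk2 stand on opposite sides of 0 in the 2 sex comparisons, and Notum stands above 0 in the 2 genotype comparisons.

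Across the 12 libraries the members did not move as one. Pearson's r of log2 levels was -0.82 between Wif1 and Dkk2, 0.74 between Sfrp2 and Frzb and 0.67 between Dkk2 and Dkk3, given as a description since the libraries share sex, genotype and tissue makeup. The genes most like Wif1 were Aldh1a1, a retinaldehyde dehydrogenase (r = 0.991), Cyp1b1, a cytochrome P450 (0.990), and Mkx, a tendon and mesenchyme homeobox factor (0.983). Those most like Dkk2 were Egfl6 (0.986), Enpp2, the enzyme autotaxin (0.975), and Slc26a7, an anion transporter (0.962). Sfrp2 was followed most closely by the mesenchymal transcription factor genes Tcf21 (0.966) and Tbx5 (0.948) and by Crispld2 (0.945). Notum was followed by Nup62, a nuclear pore gene (0.968), Cyba (0.966) and Timm50, a mitochondrial import gene (0.964). For the others the highest values were lower, at 0.900 for Frzb with Rilpl1, 0.894 for Dkk3 with Cnn2, 0.882 for Sfrp1 with Zfp280b and 0.729 for Sfrp4 with Dusp1.

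The rest of the pathway was counted in lists over both sexes, starting with other genes that restrain Wnt signalling. Of 14 tested inhibitors at or outside the cell surface, 3 were called higher in mutants and 1 lower, against 18.9% and 21.6% of all genes. After the correction for GC content and length the counts were 1 and 1, against 9.06% and 8.48% of all genes. Without mutant female 1 the counts were 6 and 2, against 22.3% and 23.7% of all genes. Rnf43, a ligase that removes Frizzled receptors, rose by 0.57 on the log2 scale (SE 0.11, limma adjusted p = 0.00195). Apcdd1 (0.48) and Kremen1 (0.23), a Dickkopf receptor, were called higher as well. At most 1 of these 3 rises kept its call after the correction for GC content and length. Sostdc1, a secreted antagonist that binds Lrp5 and Lrp6, fell by 0.69 (SE 0.15, adjusted p = 0.00331), from 7.15 to 4.34 FPKM in males and from 4.52 to 2.66 in females. Of 13 tested response genes of Wnt signalling, a list that holds Notum, Rnf43 and Apcdd1 too, 8 were called higher and 0 lower. The 12 other than Notum had a median of 0.36, and Myc (0.41), Nkd1 (0.37) and Axin2 (0.48) were among the 7 of them called by limma. With the correction for GC content and length 4 of these 12 were called higher, against 9.06% of all genes. With FPKM as deposited 1 was, against 3.97% of all genes.

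Of 13 tested Wnt ligands 8 were called higher in mutants over both sexes and 1, Wnt2, lower (-0.58), with Wnt6 (0.42), Wnt11 (0.46), Wnt4 (0.60) and Wnt16 (1.14) having the smallest p. After the GC and length correction 1 was called higher and 2 lower, so at most 1 of these named rises kept its call. The median of the ligands was 0.42 before that correction and 0.12 after it. Of 16 receptors and co-receptors 5 rose and 3 fell. Among them were Lrp5, a co-receptor on which Dkk2 acts (0.49), Ror2 (0.37), Ptk7 (0.48) and Fzd3 (-0.54). After that correction 1 rose and 1 fell, so at most 1 of the named rises kept its call. The median of this list was 0.07, and it was -0.05 with FPKM as deposited and -0.09 with scaling to the FPKM sum. Of 6 R-spondins and their receptors, which strengthen Wnt signalling, 1 rose (Lgr6, 0.44) and 3 fell (Rspo2, -0.38, Rspo3, -0.49, and Lgr4, -0.42), and after the correction 1 rose and 1 fell. Of 17 intracellular pathway genes 11 rose and 3 fell, and after the correction 7 and 0. With FPKM as deposited the calls, higher and then lower, were 2 and 1 for ligands, 1 and 2 for receptors, 0 and 3 for R-spondins, 5 and 2 for intracellular genes and 1 and 2 for the 14 other inhibitors. Over all tested genes, the shares called higher and lower were 18.9% and 21.6% as reported, 9.06% and 8.48% after the correction, and 3.97% and 20.7% with FPKM as deposited.

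Some ligands also differed between the sexes. Of 13 tested, 2 were called higher and 2 lower in males in each genotype, and 9 were not called. Over all tested genes the shares called higher and lower were 1.95% and 1.23% in wild type, and 3.98% and 3.52% in mutants. Wnt7a, a ligand of Müllerian duct epithelium, had 7.91 ± 0.667 FPKM in wild type females and 0.0460 ± 0.0254 in wild type males (n = 3 each), and its male-minus-female difference was -3.94 in wild type (limma adjusted p = 1.14e-05) and -4.31 in mutants (adjusted p = 4.92e-06). Wnt5b was lower in males too, at -0.66 in each genotype. Wnt9b (1.61 in wild type, 2.23 in mutants), a ligand of Wolffian duct epithelium, and Wnt16 (2.03 and 3.07) were higher in males. Wnt16 had 0.593 ± 0.0342 FPKM in wild type females and 4.61 ± 3.045 in wild type males (limma adjusted p = 0.0142). In mutants it had 1.198 ± 0.386 FPKM in females and 13.7 ± 2.81 in males (adjusted p = 0.00094). Wnt7a and Wnt9b also belong to the Müllerian and the Wolffian marker lists. Rspo3 was higher in males (1.497 and 2.01) and Rspo2 lower (-0.88 and -0.99). Of 6 tested R-spondins and their receptors, 1 was called higher and 1 lower in wild type. In mutants 2 were called higher, Lgr5 (0.41) among them, and 1 lower. Of the 14 other inhibitors 0 were called between the sexes in either genotype by limma.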

How the data were processed

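RNA sequencing libraries were strand-specific, single-end and made from total RNA depleted of ribosomal RNA, per the labels' protocols. The authors deposited FPKM per gene for the 12 libraries, per the file headers, and the submitters' processing notes name Cufflinks 2.2.1, STAR 2.7.10a, bedtools 2.30.0 and cutadapt 4.1. They name mm39 and mm10 without a role. Positions in the table ended as in GRCm38 for 2.74% of matched genes and are given as mm39, with starts moved by 1 base. The annotation and strand setting were not given in the sources used here. FPKM hold no counts, so the depth in reads is unknown.

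Median-ratio scaling factors came from 11897 genes that reached 1 FPKM in every library. Genes reaching 1 FPKM in 3 or more libraries were tested as log2(FPKM + 0.5) with limma 3.58.1 in R 4.3.3, with 1 mean per group, trended prior variance, two-sided tests and Benjamini-Hochberg adjustment, in 6 comparisons. The fit was tested on simulated data. Transcript GC content and length came from GENCODE M21, for 98.8% of tested genes. Promoters are from RefSeq.

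Named genes are all 8 members, up to 4 called genes per list with the smallest p, and the 3 genes with the highest r with each member. Some were named beyond that rule after their values were seen. These were genes where a list had 5 or fewer calls, Axin2, Wnt2, and sex differences of ligands and R-spondins. The members and lists were chosen with earlier results of these data known. The alternatives tried were 2 pseudocounts, 2 filters, 2 scalings, fits of 2 groups, a replicate block, library weights, a GC and length correction, and leaving out each library.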

Additional observations from a re-analysis of the deposited data

How the results depend on the processing

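Over 48 results (8 genes in 6 comparisons) and 830 values under alternatives, 796 stayed on their side of the threshold, 19 lost a call and 15 gained one. In 46 of the 796 the sign turned, and 0 of these were called in either setting. Wif1 in both sex comparisons, Dkk2 in the wild type sex comparison, and Notum in females and over both sexes kept their calls in each alternative that tested them. At a filter of 5 FPKM Notum, Frzb and Sfrp4 were not tested.

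Of the 8 genes, 1 was called in males, and 0 with no filter, the filter of 5 FPKM, FPKM as deposited, scaling to the FPKM sum or the GC correction, 2 with a fit of 2 groups or library weights, and 0 to 1 leaving out a library. In females 1 was called, 0 at 5 FPKM, 2 with sum scaling or weights, and 1 to 2 leaving out a library. Over both sexes these were 1, 0, 2 with sum scaling, 3 with weights, and 1 to 2. Between mutant sexes 3 were called, and 1 with FPKM as deposited or 2 groups. It was 2 with no filter, the filter of 5 FPKM or sum scaling, and 2 to 3 leaving out a library. Sum scaling added Dkk2 (-0.84 in females, adjusted p = 0.0217) and weights added Dkk2 (-0.41, 0.041) and, in males and over both sexes, Sfrp2 (0.46, 0.0164, and 0.44, 0.00466).

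Over all genes, 2820 were called in males (1202 higher, 1618 lower), 1350 with FPKM as deposited (121, 1229), 5991 with weights, 495 with the GC correction and 1240 to 2451 leaving out a library. The counts in females were 3895 (1687, 2208), 1666 as deposited (231, 1435), 2400 with 2 groups, 1090 with GC correction and 2439 to 4112. Over both sexes they were 5639 (2631, 3008), 3424 as deposited (552, 2872) and 2410 with GC correction. The split under sum scaling was 444 higher to 1992 lower for males, 320 to 4038 for females and 824 to 4617 for both. The difference between sexes gave 0, 1 with pseudocount 0.1, FPKM as deposited or weights, 8 with no filter, and 0 to 1 leaving out a library. Between wild type sexes the count was 442, 243 at 5 FPKM, 254 as deposited, 1233 with 2 groups, 3997 with weights and 160 to 617. Between mutant sexes it was 1042 (553, 489), 661 with no filter, 401 as deposited, 1932 with sum scaling (1702, 230), 209 with 2 groups and 433 to 1369. The median of all genes moved by -0.14 in males with FPKM as deposited and by -0.21 in females with sum scaling. The causes were not tested.

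With the replicate block Notum in males was 0.43 (adjusted p = 0.0349), and no call of the 8 genes changed. Same-numbered libraries of different groups had residual correlations of -0.226 to 0.317 in 18 pairs, 3 of them over 0.1, and 3 of 12 libraries matched their own number best, so the numbers were not taken as pairs.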
